A study of Mus musculus with 12 samples.

Results

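The well expressed long noncoding RNAs (lncRNAs) of cultured mouse astrocytes, of the spheres grown from them and of cells taken from the mouse brain are described here. The genes were chosen by level: a gene annotated as lncRNA in the deposited expression table was kept when its mean reached 5 FPKM in at least 1 of the 4 groups of samples. FPKM is the number of fragments assigned to a gene, divided by the gene's length in kilobases and scaled to the size of the library. Genes of the X and Y chromosomes and 4 imprinted genes (H19, Meg3, Rian and Mirg) were left out, which removed 3 genes at this level. The rule kept 188 of the 9963 lncRNA genes in the table, which lists 55862 genes of all kinds. No gene in the table carries the biotype lincRNA, and GENCODE M21 called only 75 of the 188 long intergenic. It called 2 of them protein-coding. As 83 of the 188 lay between protein-coding genes and the rest overlapped one or started beside it, they are called lncRNAs rather than intergenic RNAs throughout.

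RNA of 12 samples from mice labelled C57BL/6 (C57BL/6J for the NPC groups in the study's methods) was sequenced, with 3 samples in each group. ASTs were primary astrocytes of the newborn cerebral cortex, kept as a passaged monolayer in serum and sampled at 0 days of sphere culture as the negative control. A-iSCs were the same kind of cells after 5 days as spheres on agarose-coated dishes. P56-NPCs were cells dissociated from the subependymal zone at postnatal day 56 and P0-NPCs cells dissociated from the hippocampus at postnatal day 0, both positive controls taken from brain. The methods speak of 3 independent experiments in general, but neither they nor the labels say whether the 3 sequenced samples of a group came from separate cultures or animals, so p-values measure the spread between these samples, which may be technical. Age, brain region and culture change together with the NPC groups and cannot be told apart.

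LncRNAs are transcribed and often spliced like messenger RNAs but hold no long open reading frame. Some build nuclear bodies, some are made chiefly to release the small RNAs lodged in their introns or exons, and some start beside a transcription factor gene or are read across it. In the brain many are known to be restricted to a few cell types and to stay at low levels.

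The libraries held 17077780 to 24452419 fragments on genes. For a gene of 1 kilobase, 3 fragments, taken as the floor, corresponded to 0.103 to 0.187 FPKM, which covers counting error only. Each of the 188 lncRNAs rested on at least 16 fragments in every library of its highest group, with a median of 211. A pair of libraries stood apart from their groups: A-iSC replicate 3 was the lowest of its group for 57 of the 77 lncRNAs at 5 FPKM or more there, and AST replicate 2 was the highest of its group for 49 of 64. Over all genes, chi-square per degree of freedom was 2.63 between AST replicates 1 and 3. It was 43.5 and 44.97 between each of them and replicate 2. A-iSC replicate 3 was at 105.12 and 83.31 from replicates 1 and 2, which were at 13.4 from each other. Mitochondrial genes took 16.54 to 17.63% of the fragments in P56-NPCs and 2.94 to 7.03% elsewhere. Summed astrocyte markers (Gfap, Aqp4, Aldoc, Slc1a3, Gja1) were at 111 to 127 FPKM in ASTs against 1120 to 2347 in A-iSCs. The sum was 1819 to 1980 FPKM in P56-NPCs and 202 to 261 in P0-NPCs. From ASTs to A-iSCs the means of Gfap (29.9 to 970) and Aldoc (13.0 to 406) rose most, while Gja1 differed little (24.8 against 28.3). Summed mesenchymal and mural markers were at 1869 to 2255 FPKM in ASTs, mostly from Acta2, and at most 99.4 elsewhere. The P56-NPC label stood beside an oligodendrocyte marker sum of 10245 to 11667 FPKM, against at most 9.07 in the other groups. Their part in the results was not tested, and in bulk RNA fewer cells of a type and less RNA per cell cannot be told apart.

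Most of the 188 lncRNAs were near the lower limit of the rule. Their highest group mean lay between 5 and 10 FPKM for 112 genes and over 100 FPKM for 3, Gm10076, 2900097C17Rik and 2410006H16Rik, the last a host of small nucleolar RNAs. They made up 1.89% of all lncRNA genes in the table, while 44.2% of the protein-coding genes reached the same level. Together they took 0.251 to 0.287% of the fragments in ASTs, 0.365 to 0.558% in A-iSCs, 0.393 to 0.401% in P56-NPCs and 0.455 to 0.519% in P0-NPCs. The AST libraries were below all others, and the lowest A-iSC value was that of replicate 3.

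Most of these lncRNAs passed the level in a single group. A mean of 5 FPKM or more was reached in 1 group by 109 lncRNAs (58.0%), in 2 groups by 31, in 3 by 25 and in all 4 by 23 (12.2%). Among the 9378 autosomal protein-coding genes that passed the same rule, 21.3% reached it in 1 group and 49.4% in all 4; levels were not matched between the sets, and a gene just over 5 FPKM can easily pass in 1 group only. The highest mean was in P56-NPCs for 79 lncRNAs (42.0%), in P0-NPCs for 52 (27.7%), in ASTs for 31 (16.5%) and in A-iSCs for 26 (13.8%). ASTs were highest for 36.4% of the protein-coding genes, more than any other group. The median lncRNA was at 2.37 FPKM in ASTs, 3.73 in A-iSCs, 5.67 in P56-NPCs and 4.17 in P0-NPCs, and 100 lncRNAs were lowest in ASTs. The 3 samples of the highest group lay above every other sample for 138 of the 188 (73.4%), against 67.6% of the 10504 genes of any kind that passed the level. Since the level rule used these values, the counts are a description. They rest on the deposited scaling and were not repeated with another. In that scaling the library size was 0.7439 to 0.7789 times the fragments counted in P56-NPCs and 0.9413 to 1.218 times elsewhere. This raised FPKM in P56-NPCs against the other groups.

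**Figure D1:**
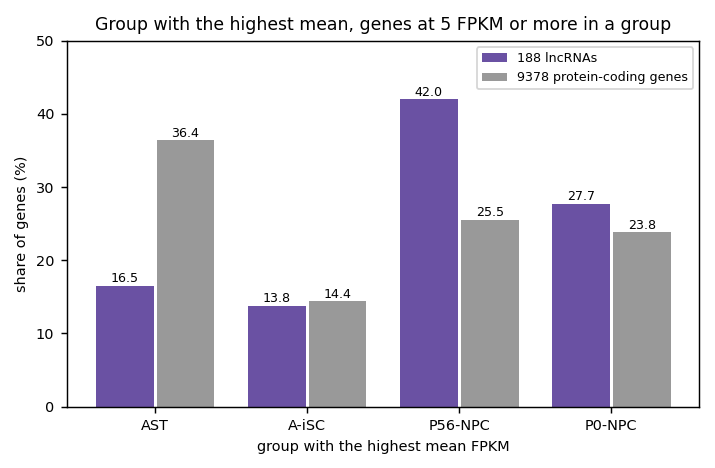
Share of genes (%, bars from 0) by the group in which their mean FPKM was highest, for the 188 lncRNAs (purple) and 9378 protein-coding genes that passed the same level rule (grey). With the deposited scaling, P56-NPCs held the largest share of lncRNAs (42.0%) and ASTs the largest share of protein-coding genes (36.4%).

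**Figure D2:**
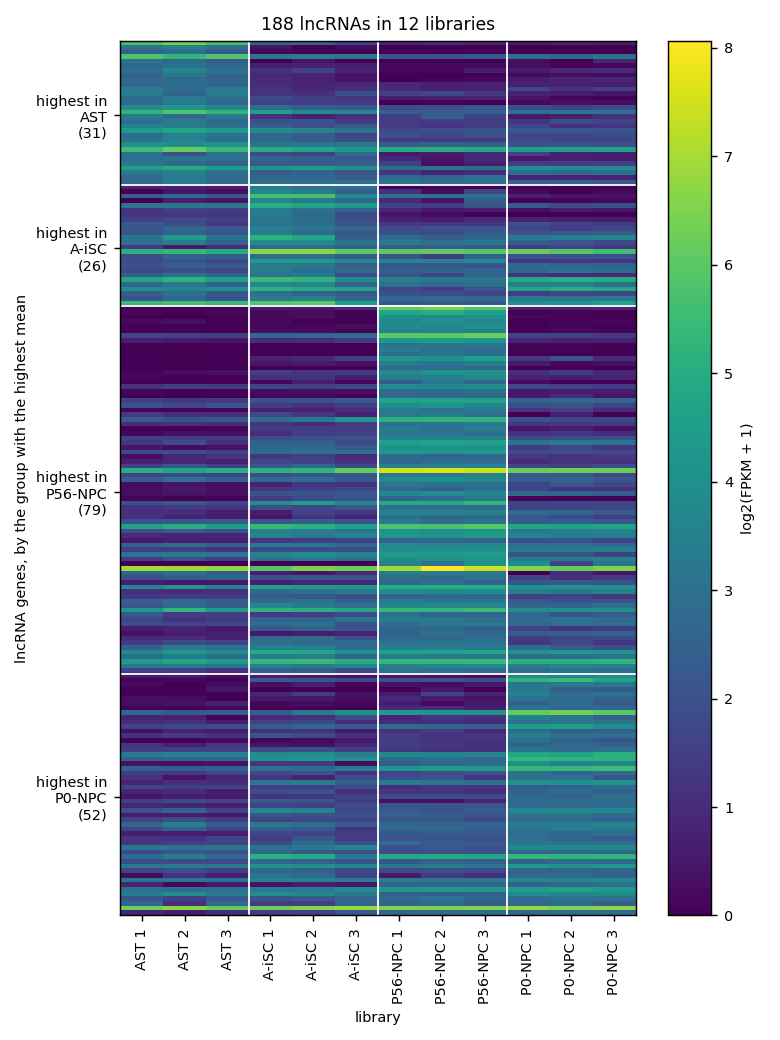
Expression of the 188 lncRNAs (rows) in the 12 libraries (columns) as log2(FPKM + 1), grouped by the group with the highest mean and separated by white lines. With the deposited scaling, the 79 lncRNAs highest in P56-NPCs form the largest block, and brighter colours mark higher levels.

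For tests between groups, a lncRNA was counted only when its mean reached 5 FPKM in both groups compared, because one that passed the level through a single group had to differ. Genes were called at an adjusted p under 0.05 by limma over all genes tested, and fold changes are on the log2(FPKM + 1) scale. The same count over all genes at 5 FPKM or more in both groups is given as the background. The comparisons share samples and are not independent of each other.

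In A-iSCs against ASTs, 40 lncRNAs reached the level in both groups. Of these, 11 (27.5%) were called higher in A-iSCs, beside 13.6% of all such genes, and 6 were called lower, beside 35.3%. Their median log2 fold change was 0.31, beside -0.24 over the 6473 genes at that level. Scaling by library size gave 16 higher and 5 lower. The count of higher calls turned on single libraries: it was 19 without A-iSC replicate 3, 7 without A-iSC replicate 1, and 5 without AST replicate 1 or 3.

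Against ASTs, P56-NPCs had 17 of 31 lncRNAs higher (54.8%), beside 26.9% of all such genes, and 4 lower (12.9%), beside 47.7%. The split was 12 higher and 6 lower with scaling by library size. In P0-NPCs against ASTs, 12 of 30 were higher, beside 24% of all such genes, and 8 were lower (26.7%), beside 49.4%. There the split became 19 and 5 with scaling by library size and 17 and 5 with upper-quartile scaling, and 19 were higher without AST replicate 2 and 5 lower without P0-NPC replicate 2. The lncRNA medians were 0.51 in P56-NPCs and 0.25 in P0-NPCs, beside -0.24 and -0.29 over all genes at the level.

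Against P56-NPCs, A-iSCs had 6 of 51 lncRNAs higher (11.8%), beside 28.7% of all such genes, and 20 lower (39.2%), beside 26.6%. Scaling by library size alone gave 18 higher and 9 lower and moved the median of all tested genes from 0.03 to 0.47. The lncRNA median was below that of all tested genes in both settings, at -0.34 and 0.20. Without A-iSC replicate 3, 14 were higher and 21 lower. Against P0-NPCs, 6 of 45 were higher in A-iSCs (13.3%), beside 29.0%, and 9 were lower, beside 27.0%. These counts also turned on single libraries, with 18 higher and 13 lower without A-iSC replicate 3, 3 higher without A-iSC replicate 1, and 2 higher without A-iSC replicate 2 or P0-NPC replicate 2.

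**Figure D3:**
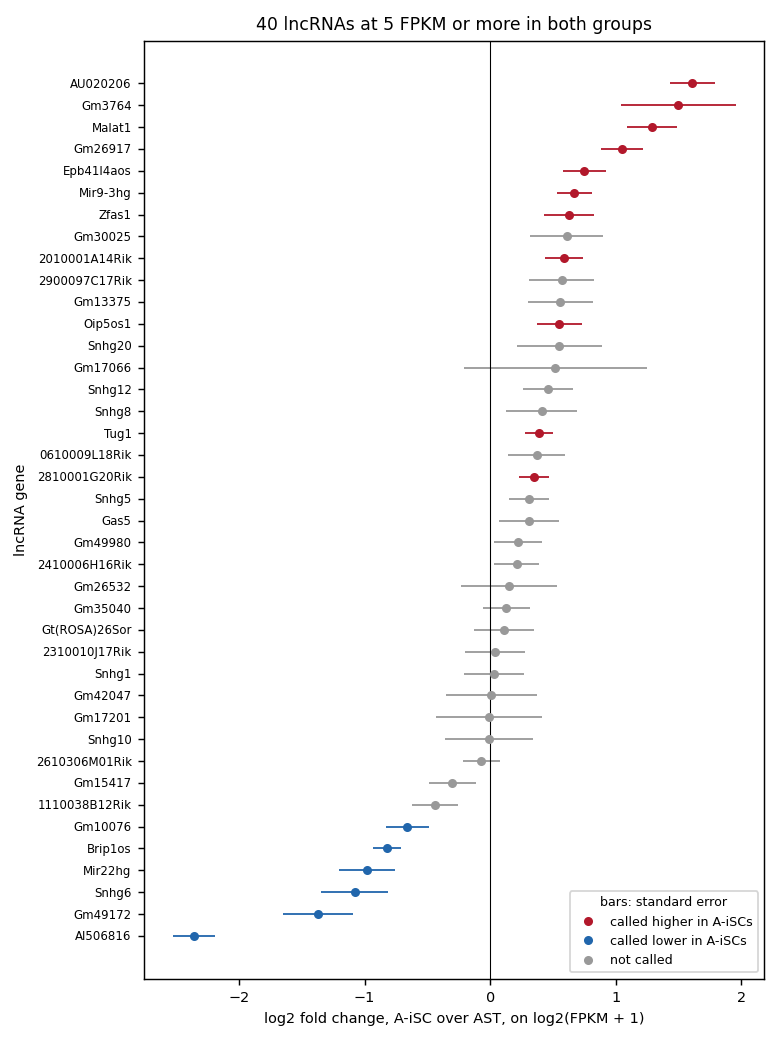
Log2 fold change of A-iSCs over ASTs on log2(FPKM + 1), with standard errors, for the 40 lncRNAs at 5 FPKM or more in both groups, ordered by size. The 11 called higher (red) include AU020206 at 1.61 and the 6 called lower (blue) end with AI506816 at -2.36, while 23 (grey) were not called.

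Malat1 and Neat1 lie near each other on chromosome 19 and are retained in the nucleus. Malat1 (chr19:5795690-5802672, minus strand, GRCm38) gathers in nuclear speckles, where splicing factors are stored. It stood at 35.6, 40.7 and 30.7 FPKM in ASTs and at 100, 103 and 66.3 in A-iSCs. P56-NPCs had 65.0, 68.3 and 60.8 FPKM and P0-NPCs 72.1, 60.6 and 47.2. Every sample of the other 3 groups thus lay above every AST sample, and the groups other than ASTs overlapped. The call over ASTs was made in A-iSCs (log2 fold change 1.29 ± 0.20 SE, adjusted p = 0.00145), in P56-NPCs (0.85 ± 0.11, adjusted p = 0.000316) and in P0-NPCs (0.72 ± 0.17, adjusted p = 0.00480), and in every alternative tried.

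Neat1 (chr19:5824708-5845478, minus strand) is the scaffold on which paraspeckles assemble. It stood at 49.2, 51.6 and 12.9 FPKM in A-iSCs and at 4.46, 5.82 and 3.46 in ASTs. P56-NPCs had 7.16, 7.12 and 6.99 FPKM, while P0-NPCs had 0.661, 0.417 and 0.316. The A-iSC samples lay above all others although replicate 3 was the lowest of its group. Neat1 was called higher in A-iSCs than in P56-NPCs (2.04 ± 0.48, adjusted p = 0.00885), the only comparison in which both groups reached the level. P0-NPCs were the lowest for Neat1 but not for Malat1.

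The genes of the proteins of these bodies were compared as lists. Of 9 genes for paraspeckle proteins, 6 were lower and none higher in A-iSCs against ASTs (3 lower with scaling by library size or by the upper quartile), beside 35.3% of all genes at the level called lower. Pspc1, a paraspeckle protein, was at 7.38 ± 1.10 FPKM in A-iSCs, below 13.6 ± 0.243 in ASTs (SD, n = 3; adjusted p = 0.00125). Against P56-NPCs, where Neat1 was called higher in A-iSCs, 3 of the 9 were higher and none lower, beside 28.7% of all such genes called higher (all 9 with scaling by library size). In P0-NPCs, where Neat1 was lowest, 6 of the 9 were higher than in ASTs and 1 lower, beside 24% and 49.4% of all such genes. In A-iSCs against P0-NPCs 8 of the 9 were lower and none higher, beside 27.0% of all such genes called lower (Neat1 means of 37.9 and 0.465 FPKM). In P56-NPCs against ASTs 8 were also lower and none higher, beside 47.7%. Of 5 nuclear speckle genes at the level, 2 were higher and 1 lower in A-iSCs against ASTs, beside 13.6% and 35.3% of all such genes (2 and 0 with scaling by library size or by the upper quartile). The higher were the speckle scaffold genes Srrm2 and Son. In P56-NPCs against ASTs 2 were higher and 1 lower, beside 26.9% and 47.7% (1 and 2 with scaling by library size). All 5 were higher in P0-NPCs than in ASTs, beside 24% of all such genes, with Srrm2 at 37.8 against 14.5 FPKM. In A-iSCs against P56-NPCs none was higher and 1 was lower, beside 28.7% and 26.6% of all such genes (4 and 0 with scaling by library size). All 5 were lower in A-iSCs than in P0-NPCs, beside 27.0% of all such genes. Malat1 was not called between these groups (means of 89.9 and 60.0 FPKM, adjusted p = 0.0509, called in 5 of 13 alternatives).

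Small nucleolar RNAs (snoRNAs) guide the modification of ribosomal RNA and are cut from introns of host genes. Among the 188 lncRNAs, 18 held an annotated snoRNA gene (46 snoRNAs, 10 of them in Gas5), or 9.6% against 0.55% of the 9037 other lncRNA genes compared. A list of 21 known snoRNA hosts gave 13 of these lncRNAs; 7 others were in the table without passing the rule. Summed over the 13, levels were 167 to 270 FPKM in ASTs, 159 to 245 in A-iSCs, 237 to 255 in P56-NPCs and 187 to 202 in P0-NPCs. The sums of ASTs and A-iSCs overlapped all groups, and those of the NPC groups did not overlap each other.

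Single hosts differed in direction. Gas5, which is known for its rise in growth-arrested cells, stood at 23.8, 33.1 and 21.9 FPKM in ASTs and at 41.2, 34.7 and 23.5 in A-iSCs, which overlapped. It reached 53.7, 51.4 and 61.5 FPKM in P56-NPCs and was called higher there than in ASTs (1.07 ± 0.16, adjusted p = 0.000557). Its level in P0-NPCs, 24.6 to 27.2 FPKM, lay within the AST range. Snhg6 went the other way, with 45.5, 72.4 and 42.7 FPKM in ASTs and no sample above 31.4 elsewhere. It was lower in A-iSCs (-1.08 ± 0.27, adjusted p = 0.0115), P56-NPCs (-0.74 ± 0.19, adjusted p = 0.00920) and P0-NPCs (-1.07 ± 0.19, adjusted p = 0.000992), also in every alternative. Snhg5 was highest in P0-NPCs at 27.0, 24.7 and 34.0 FPKM, against 8.76 to 10.7 in ASTs (1.45 ± 0.13, adjusted p = 2.13e-05) and 9.64 to 14.1 in A-iSCs. Snhg8 was the reverse among the NPC groups, with 39.2 to 43.8 FPKM in P56-NPCs and 13.8 to 16.5 in P0-NPCs. It was higher in A-iSCs, at 27.9 to 36.7 FPKM, than in P0-NPCs (1.08 ± 0.14, adjusted p = 0.000253).

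Across the list, 10 hosts reached the level in both A-iSCs and ASTs: Epb41l4aos and Zfas1 were higher, Snhg6 lower and 7 not called, beside 13.6% higher and 35.3% lower among all genes at the level. Epb41l4aos rose from 22.3 ± 3.74 to 38.1 ± 5.85 FPKM (0.75 ± 0.17, adjusted p = 0.00736). The Zfas1 call (0.63 ± 0.20, adjusted p = 0.0296) was lost when low values were not filtered (adjusted p = 0.0621), and also without A-iSC replicate 1 or 2 or AST replicate 1 or 3, at adjusted p between 0.0698 and 0.104. In P56-NPCs against ASTs, 6 of 9 were higher and 1 lower, beside 26.9% and 47.7% of all genes at the level, and the median log2 fold change was 0.75 beside -0.24 over those genes. Zfas1 (1.19 ± 0.17), Snhg12 (1.14 ± 0.12) and Epb41l4aos (0.85 ± 0.12) kept that call in every alternative. The call of Snhg5 there was kept in 3 of 13 alternatives and that of Snhg8 in 6, and the small Snhg5 difference (0.25 ± 0.09) turned to -0.06 with scaling by library size. In A-iSCs against P56-NPCs, 4 of 9 were lower and none higher, beside 26.6% and 28.7% of all such genes. The small Snhg8 difference among them (-0.34 ± 0.12) turned to 0.20 with scaling by library size. Its call was lost in most alternatives, among them upper-quartile scaling (adjusted p = 0.133) and no filter on low values (adjusted p = 0.0700). Zfas1 (-0.56 ± 0.11), Gas5 (-0.76 ± 0.20) and Snhg12 (-0.68 ± 0.18) were the others, and all 3 lost the call with scaling by library size, as Gas5 did without P56-NPC replicate 3 (adjusted p = 0.0534). In P0-NPCs against ASTs 3 of 10 were higher and 2 lower, beside 24% and 49.4%. The lower call of Snhg8 there was lost with scaling by library size (adjusted p = 0.175) or by the upper quartile (adjusted p = 0.143). In A-iSCs against P0-NPCs 2 of 10 were higher and 2 lower, beside 29.0% and 27.0%. Here the higher call of Zfas1 was lost with the same scalings (adjusted p = 0.0665 and 0.0518).

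Snhg18 and Snhg15 were highest in ASTs, at 11.7 to 18.4 and 6.84 to 11.2 FPKM, with no other sample above 6.18 and 5.41. Snhg17 reached the level in P0-NPCs alone, at 6.29 to 7.66 FPKM against at most 2.89 elsewhere. Snhg20 stood at 12.9, 11.8 and 4.83 FPKM in A-iSCs and overlapped every other group. Snhg10, at 9.54 to 11.6 FPKM in P0-NPCs, overlapped ASTs (3.87 to 10.2), and its calls there and below P0-NPCs in A-iSCs held in 5 and 8 of 13 alternatives.

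Of the genes of the core proteins that bind snoRNAs, 6 of 7 at the level were called lower in A-iSCs than in ASTs and none higher, beside 35.3% of all such genes called lower. Nop56, the exception, stood at 23.9 against 33.2 FPKM (adjusted p = 0.210). Fbl, the methyltransferase fibrillarin, stood at 14.9 ± 2.46 against 29.0 ± 5.15 FPKM (adjusted p = 0.00340) and Nop58 at 5.52 ± 0.446 against 15.2 ± 2.12 (adjusted p = 0.000154). P56-NPCs had 5 of 7 lower, beside 47.7% of all such genes, and P0-NPCs 5 of 8, beside 49.4%. Snu13 and Dkc1 were not called in either NPC group, nor Gar1 in P0-NPCs. With scaling by library size 4, 7 and 4 were lower in these groups, and none was higher. Proliferation markers moved with them, at a sum of 88.3 to 94.9 FPKM in ASTs and at most 42.8 in any other group, and their part was not tested.

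**Figure D4:**
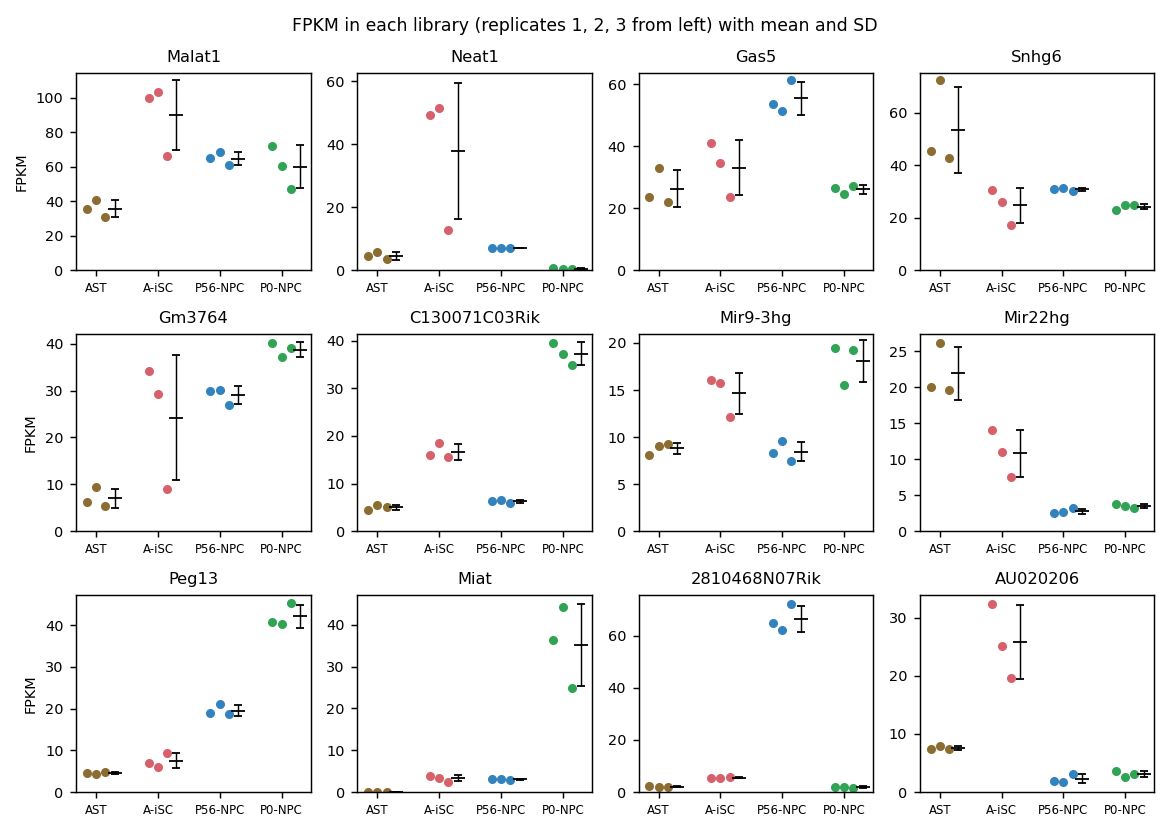
FPKM of 12 lncRNAs in each library (points, replicates 1 to 3 from left to right within a group) with the mean and SD of each group (black bars). Malat1, Neat1 and AU020206 are highest in A-iSCs, Gas5 and 2810468N07Rik in P56-NPCs, and A-iSC replicate 3 is the lowest A-iSC point for Malat1, Neat1 and Gm3764.

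Hosts of snoRNAs belong to a class of genes whose transcription starts in a run of pyrimidines, so their start sites are shown. RefSeq (GRCm38.p6) gave start-site windows for 101 of the 188 lncRNAs, 15 of them holding a snoRNA. A run was counted when a C within 10 bases of the annotated start was followed on the gene strand by 5 or more of C or T. It was found in 9 of the 15 snoRNA-holding lncRNAs (60.0%), 28 of the 86 others (32.6%) and 5508 of 27025 genes (20.4%). The motif TATAAA, 40 to 16 bases before the start, was in 4 of the 15 snoRNA-holding lncRNAs (26.7%), 1 of the 86 others and 2.41% of all genes. On the other strand it was in 5.56%, 0% and 0.618% of their windows. The windows below run from 40 bases before the start to 30 after it, with the run and TATAAA in capitals. They show hosts with both features, with the run alone and with TATAAA alone. The other annotated start window of Gas5 (chr1:161034561-161034631, plus) has no run and is not shown.
Snhg8 (chr3:123508306-123508376, minus): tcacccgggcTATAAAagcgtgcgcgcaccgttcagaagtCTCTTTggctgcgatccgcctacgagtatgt
1110038B12Rik (chr17:34952438-34952508, minus): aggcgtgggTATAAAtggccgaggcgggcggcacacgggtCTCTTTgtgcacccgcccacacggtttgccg
Rab26os (chr17:24528211-24528281, plus): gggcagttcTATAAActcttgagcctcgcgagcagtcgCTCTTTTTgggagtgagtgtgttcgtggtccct
2410006H16Rik (chr11:62602837-62602907, plus): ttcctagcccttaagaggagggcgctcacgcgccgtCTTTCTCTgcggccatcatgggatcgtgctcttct
Gas5 (chr1:161035126-161035196, plus): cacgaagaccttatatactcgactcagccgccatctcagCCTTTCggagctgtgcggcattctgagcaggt
Snhg12 (chr4:132308638-132308708, plus): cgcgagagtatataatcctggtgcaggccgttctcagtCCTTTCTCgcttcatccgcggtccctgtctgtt
Snhg5 (chr9:88522867-88522937, minus): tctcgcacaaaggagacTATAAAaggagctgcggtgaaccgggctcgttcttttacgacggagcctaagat
The hosts with both features did not share a pattern of levels. Snhg8 was highest in P56-NPCs, where 1110038B12Rik was lowest, at a mean of 6.61 FPKM against 24.9 in ASTs (-1.75 ± 0.15, adjusted p = 2.55e-05). 2410006H16Rik, with 3 snoRNAs, was at 72.0 to 110 FPKM in all 12 samples and was not called in any of the 5 comparisons. A match is a description of these letters and not a mapped start.

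Hosts of microRNAs (miRNAs) release a hairpin from which a short RNA is cut that represses messenger RNAs paired to its seed, bases 2 to 8. Of the 188 lncRNAs, 13 held a miRNA gene (16 different hairpins), or 6.9% against 0.6% of the other lncRNA genes. The 3 genes that encode miR-9, a miRNA known for its part in neural development, lie in 3 different lncRNAs, all among the 188: Mir9-1 in Gm3764, Mir9-2 in C130071C03Rik and Mir9-3 in Mir9-3hg. They give the same mature sequences, shown from RefSeq (GRCm38.p6) with the seed in capitals beside those of 4 other hosts described here, Mir22hg, Mir142hg, Lncppara and Mir100hg.
mmu-miR-9-5p (Gm3764 at chr3:88215613-88215635, C130071C03Rik at chr13:83738821-83738843, Mir9-3hg at chr7:79505279-79505301, all plus): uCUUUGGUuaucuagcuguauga
mmu-miR-9-3p (the same 3 hosts): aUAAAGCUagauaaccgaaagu
mmu-miR-22-3p (Mir22hg, chr11:75463772-75463793, plus): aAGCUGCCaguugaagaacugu
mmu-miR-142a-5p (Mir142hg, chr11:87756867-87756887, plus): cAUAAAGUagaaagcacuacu
mmu-miR-142a-3p (Mir142hg, chr11:87756903-87756925, plus): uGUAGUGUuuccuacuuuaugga
mmu-let-7c-5p (Lncppara, chr15:85706616-85706637, plus): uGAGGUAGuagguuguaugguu
mmu-let-7b-5p (Lncppara, chr15:85707325-85707346, plus): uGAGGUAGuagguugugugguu
mmu-miR-100-5p (Mir100hg, chr9:41531437-41531458, plus): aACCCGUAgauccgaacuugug
mmu-miR-125b-5p (Mir100hg and Gm28119, chr9:41581940-41581961, plus): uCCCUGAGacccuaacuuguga
The let-7 pair shares a seed, as do the 3 copies of miR-9. Mature miRNAs were not measured, so the values below are those of the host transcripts.

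The 3 miR-9 hosts were all highest in P0-NPCs and lowest in ASTs or P56-NPCs, but differed in size and spread. Gm3764 stood at 6.18, 9.35 and 5.41 FPKM in ASTs, 26.9 to 30.2 in P56-NPCs and 40.1, 37.1 and 39.1 in P0-NPCs. It was called higher than in ASTs in P56-NPCs (1.94 ± 0.17, adjusted p = 3.60e-05) and in P0-NPCs (2.35 ± 0.17, adjusted p = 5.72e-06). In A-iSCs it was at 34.2, 29.3 and 9.03 FPKM, so that replicate 3 fell within the AST range. The A-iSC call over ASTs (adjusted p = 0.0281) was lost when no filter on low values was applied (adjusted p = 0.0712), and also without A-iSC replicate 1 or 2 or AST replicate 1 or 3, at adjusted p between 0.0747 and 0.0960.

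C130071C03Rik, the miR-9 host on chromosome 13, separated all 4 groups. Its values were 4.39, 5.48 and 5.06 FPKM in ASTs, 15.9, 18.6 and 15.5 in A-iSCs and 6.28, 6.53 and 5.94 in P56-NPCs, with 39.6, 37.3 and 34.9 in P0-NPCs. No sample of one group reached into another. A-iSCs lay above P56-NPCs (1.28 ± 0.10, adjusted p = 4.49e-05) and below P0-NPCs (-1.12 ± 0.12, adjusted p = 9.01e-05), both in every alternative. Mir9-3hg was at 8.14 to 9.23 FPKM in ASTs and at a mean of 8.43 in P56-NPCs, and at 12.1 to 16.1 in A-iSCs and 15.5 to 19.5 in P0-NPCs. Its level in A-iSCs was called higher than in ASTs (0.67 ± 0.14, adjusted p = 0.00479) and than in P56-NPCs (0.73 ± 0.14, adjusted p = 0.00340).

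The other hosts had their own groups. Mir22hg was highest in ASTs at 20.1, 26.2 and 19.6 FPKM and lower in A-iSCs at a mean of 10.8 (-0.98 ± 0.22, adjusted p = 0.00767), with 2.46 to 3.79 in the NPC groups. Mir142hg, whose miRNA is known from blood cells and microglia, stood at 12.2, 9.38 and 4.30 FPKM in A-iSCs and at most 2.26 in any other sample. Summed microglia markers were also highest in A-iSCs, at 1290 to 1631 FPKM against 610 to 649 in P56-NPCs, 140 to 155 in ASTs and 82.7 to 95.9 in P0-NPCs. C1qa made up most of that sum, at a mean of 1029 FPKM against 213 in P56-NPCs, whereas Tmem119 (16.8 against 52.2) and P2ry12 (7.30 against 60.2) were higher in P56-NPCs. All 6 markers were at 1 FPKM or more in every group but ASTs, where 5 were, and their part was not tested. Lncppara, which holds let-7c and let-7b, was at 6.86, 8.06 and 7.79 FPKM in P0-NPCs and at most 2.36 elsewhere. Mir100hg, which also holds a let-7a gene, was within 1.97 to 5.36 FPKM in all samples, and its A-iSC values (5.36, 4.70 and 2.39) reached into every other group.

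Of 12 lncRNAs known from neural tissue 7 passed the rule. The mean was lowest in ASTs for 6 of them and in A-iSCs for Lhx1os, and only Oip5os1 reached the level in ASTs and could be tested against them. The sum of the 7 was 15.4 to 15.8 FPKM in ASTs, 32.7 to 39.5 in A-iSCs, 78.8 to 84.1 in P56-NPCs and 113 to 132 in P0-NPCs. These sums did not overlap, but all except Oip5os1 passed the rule through groups other than ASTs. Of the 7, 3 reached 5 FPKM in A-iSCs, 5 in P56-NPCs and 6 in P0-NPCs. The order of the sums is thus partly set by the rule and is a description. The members were not alike. Peg13, an imprinted RNA read from within Trappc9, stood at 4.30 to 4.80 FPKM in ASTs and 6.89, 6.00 and 9.46 in A-iSCs. It stood at 18.7 FPKM or more in P56-NPCs and 40.8, 40.3 and 45.2 in P0-NPCs, so that no groups overlapped. A-iSCs were lower than P56-NPCs (-1.30 ± 0.16, adjusted p = 0.000350) and P0-NPCs (-2.37 ± 0.16, adjusted p = 9.86e-06).

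Oip5os1, also called Cyrano, was at 6.48 to 6.86 FPKM in ASTs, 18.5, 18.8 and 17.8 in P56-NPCs and 20.8, 24.1 and 18.9 in P0-NPCs. It was higher than in ASTs in both (1.33 ± 0.06, adjusted p = 1.33e-06, and 1.53 ± 0.10, adjusted p = 3.42e-06). Its A-iSC values of 8.76, 8.93 and 13.9 FPKM lay between the groups. The A-iSC call over ASTs (0.55 ± 0.18, adjusted p = 0.0312) was lost without a filter on low values (adjusted p = 0.0640) and when any of the 3 AST replicates was left out, at adjusted p between 0.0769 and 0.0815, and the call below P56-NPCs (-0.78 ± 0.17) was lost with scaling by library size.

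Miat and Lhx1os were close to absent in ASTs. Miat, known from neurons and retinal precursors, was at 0.0348 to 0.127 FPKM in ASTs, 2.49 to 3.90 in A-iSCs and 2.82 to 3.16 in P56-NPCs, and at 36.4, 44.2 and 24.9 in P0-NPCs. Lhx1os, which starts 125 bases from the transcription factor gene Lhx1, was at 7.01, 5.66 and 6.03 FPKM in P0-NPCs, at 0.609 to 1.07 in P56-NPCs and at 0 in all 3 A-iSC samples. P0-NPCs also had the highest neuron marker sum, 713 to 897 FPKM against 131 to 160 in P56-NPCs, 81.5 to 118 in ASTs and a median of 47.7 in A-iSCs. Tubb3 made up most of it, at a mean of 634 FPKM, while Snap25 (33.7 against 14.9) and Syt1 (8.20 against 7.32) were higher in P56-NPCs than in P0-NPCs, and their part was not tested.

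The remaining 3 neural lncRNAs lie at genes of the Sox and Pou families and were highest in P56-NPCs. Sox1ot, read across Sox1, was at 13.0, 14.1 and 11.3 FPKM there, 4.19 to 5.60 in P0-NPCs, 3.18 to 3.56 in A-iSCs and 0.249 to 0.346 in ASTs. Sox2ot, which contains Sox2, was at 10.2 to 10.4 FPKM in P56-NPCs and 1.70 to 3.15 in all other samples. Pantr1, beside Pou3f3, was at 14.8, 15.6 and 17.3 FPKM in P56-NPCs, 9.41 to 10.8 in P0-NPCs, 6.90 to 8.12 in A-iSCs and 1.64 to 2.89 in ASTs. It was lower in A-iSCs than in P56-NPCs (-0.98 ± 0.10, adjusted p = 0.000180). The smaller difference from P0-NPCs (-0.35 ± 0.11, adjusted p = 0.0253) lost its call without A-iSC replicate 1 or any single P0-NPC replicate.

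The lists of growth and stress, immune, and mesodermal lncRNAs gave 5 of the 188. Tug1, a widely expressed nuclear RNA, differed little, at 7.63 to 8.03 FPKM in ASTs, 9.56 to 11.4 in A-iSCs, 8.31 to 8.95 in P56-NPCs and 11.0 to 13.6 in P0-NPCs. It was higher in P0-NPCs than in ASTs (0.59 ± 0.09, adjusted p = 0.000522), while the A-iSC call over ASTs (0.39 ± 0.11, adjusted p = 0.0181) was lost without A-iSC replicate 1 or 2 or AST replicate 1 or 3 (adjusted p 0.0609 to 0.0792). 2900097C17Rik was at 26.1 to 33.3 FPKM in ASTs, 74.8 to 76.6 in P0-NPCs and 185, 196 and 174 in P56-NPCs. It was higher than in ASTs in P56-NPCs (2.55 ± 0.11, adjusted p = 9.91e-07) and P0-NPCs (1.27 ± 0.11, adjusted p = 1.82e-05). A-iSCs were lower than P56-NPCs (-1.98 ± 0.25, adjusted p = 0.000469). Its A-iSC values of 35.2, 39.0 and 71.1 FPKM were unlike most others in that replicate 3 was the highest. A share of 51.6% of its sequence has a near-identical copy in the transcript of Gm7292, so its level is uncertain.

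AU020206, listed among immune lncRNAs, was at 32.4, 25.2 and 19.7 FPKM in A-iSCs and at 7.37 to 7.98 in ASTs (1.61 ± 0.18, adjusted p = 0.000261). Among the 40 lncRNAs compared, this was the highest log2 fold change on log2(FPKM + 1) with all libraries. AU020206 was at 1.74 to 3.70 FPKM in the NPC groups. The microglia marker sum given above, carried by C1qa, was highest in A-iSCs as well, while Tmem119 and P2ry12 were highest in P56-NPCs. The part of these markers was not tested. 1810026B05Rik, at Chd2, was at 9.63, 7.24 and 6.63 FPKM in P0-NPCs and at most 3.32 elsewhere. Bvht, also called Braveheart and known from heart development, was highest in ASTs at 10.5, 9.67 and 6.78 FPKM, with 3.01 to 4.47 in A-iSCs and 1.13 to 2.31 in the NPC groups. The mesenchymal and mural marker sum was likewise highest in ASTs through Acta2 and Col1a1, while Col3a1 (34.9 against 2.39 FPKM), Pdgfrb (12.2 against 11.1) and Dcn had higher means in P0-NPCs than in ASTs; their part was not tested.

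Beyond these lists, the lncRNAs that fell from ASTs to A-iSCs included unnamed transcripts with large differences. AI506816 was at 56.1, 39.4 and 57.2 FPKM in ASTs, 8.33 to 10.1 in A-iSCs and 5.56 to 6.99 in P0-NPCs (A-iSCs -2.36 ± 0.17, adjusted p = 3.54e-05; P0-NPCs -2.79 ± 0.16, adjusted p = 1.50e-06). It holds a snoRNA gene, its start window contains a pyrimidine run, and 33.5% of its sequence has near-identical copies in other genes. Gm49172, antisense to Ano6, was at 37.6, 57.0 and 38.1 FPKM in ASTs, 24.8, 13.9 and 12.2 in A-iSCs and 7.22 to 8.34 in P0-NPCs, and was lower in A-iSCs (-1.37 ± 0.28, adjusted p = 0.00510). A-iSCs were still above P0-NPCs for it (0.97 ± 0.24, adjusted p = 0.00775). Gm26917 rose to a mean of 30.1 FPKM in A-iSCs from at most 15.4 in ASTs (1.05 ± 0.17, adjusted p = 0.00159), with 26.6 to 31.4 in P0-NPCs and 1.68 to 3.17 in P56-NPCs.

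Large calls against the NPC groups were also made for transcripts outside the lists. 2810468N07Rik, at the glial transcription factor gene Sox8, was at 64.8, 62.3 and 72.1 FPKM in P56-NPCs and at 5.37 to 5.87 in A-iSCs (-3.36 ± 0.10, adjusted p = 5.13e-07). Prdm16os was at 35.8 to 36.8 FPKM in P56-NPCs and at 5.91, 8.51 and 17.5 in A-iSCs (-1.81 ± 0.33, adjusted p = 0.00254), with 2.34 to 3.91 in the other groups. Gm17750 was at 68.5, 80.8 and 62.7 FPKM in P0-NPCs, 16.6 to 19.4 in P56-NPCs, and 4.03, 8.19 and 16.4 in A-iSCs (A-iSCs below P0-NPCs by -2.94 ± 0.39, adjusted p = 0.000355). For both of the last genes A-iSC replicate 3 was the highest of its group, and the calls held without it.

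Calls of a few other transcripts rested on particular libraries or settings. Gm17201 stood at 43.5, 37.0 and 13.3 FPKM in A-iSCs, above 7.47 to 10.6 in P56-NPCs (1.53 ± 0.41, adjusted p = 0.0148), and lost this call without A-iSC replicate 2 (adjusted p = 0.0546) or P56-NPC replicate 3 (adjusted p = 0.0515). It was lower in P56-NPCs than in ASTs in every alternative (-1.54 ± 0.19, adjusted p = 0.000200). Gm42047 was at 58.7, 64.3 and 23.3 FPKM in A-iSCs and at 15.1 or more in P0-NPCs, which overlapped, and the call between them (1.27 ± 0.37, adjusted p = 0.0180) was lost in 5 of 13 alternatives, among them leaving out A-iSC replicate 1 or 2 or P0-NPC replicate 1 or 2 (adjusted p 0.0548 to 0.0669). It was also lower in P0-NPCs than in ASTs, in every alternative (-1.26 ± 0.17, adjusted p = 0.000204). Gm17066 (P56-NPCs below ASTs) and Sp3os (A-iSCs above P0-NPCs) kept their calls in 6 and 8 of 13 alternatives.

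The lncRNAs that reached 5 FPKM in a single group were most numerous and most separate in P56-NPCs. There were 43 of them, with a median ratio of 5.12 to the next group and 15 at 10 times or more. P0-NPCs had 32 (median ratio 2.44, 6 at 10 times or more), ASTs 22 (3.90, and 5) and A-iSCs 12 (2.45, and 1). The level rule used these values, and the deposited scaling raised FPKM in P56-NPCs against the other groups. These counts and ratios are thus a description, with no background of other genes. 2900052N01Rik had the highest level of the 43, at 69.2, 83.9 and 60.1 FPKM in P56-NPCs and at most 0.911 in any other sample. 1700047M11Rik was at 15.3, 12.4 and 16.3 FPKM there, at most 0.207 elsewhere and at 0 in all AST samples. Oligodendrocyte markers, which were at 1 FPKM or more for 5 of 5 genes in P56-NPCs and 0 of 5 in ASTs, moved with this group, as did the ependymal sum (221 to 286 FPKM against at most 74.0 elsewhere). Their part was not tested.

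The other groups had their own restricted transcripts. In ASTs these were Gm17501, at 51.5, 84.4 and 52.1 FPKM against 2.14 to 5.02 in A-iSCs and under 1 in the NPC groups, and Gm38398, at 7.56, 11.3 and 6.82 against at most 0.340. In A-iSCs 4930430E12Rik stood at 9.22, 7.11 and 7.56 FPKM, with 0.569 to 0.788 in ASTs and at most 0.0605 in the NPC groups. In P0-NPCs A330084C13Rik, at Nedd4l, was at 13.0, 10.8 and 13.4 FPKM and at most 0.535 elsewhere, and Gm12063, near the transcription factor gene Bcl11a, at 7.89 to 8.55 and at most 0.588. These genes were named for their gap between groups, so no test is given.

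The position of the lncRNAs relative to protein-coding genes was not used to choose them. Of the 188, 39 (20.7%) were divergent, starting within 1000 bases of a protein-coding gene on the other strand, against 6.8% of the other lncRNA genes. Among lncRNAs with a highest mean of 1 to 5 FPKM, 17.6% were divergent. A further 48 overlapped a protein-coding gene on the opposite strand and 18 on the same strand, and 83 (44.1%) lay between genes. The shares between genes were 52.5% of all other lncRNAs but 33.5% of those at 1 to 5 FPKM, and the shares on the opposite strand were 25.5% of the 188, 34.3% and 42.0%. Where the neighbour also reached 5 FPKM, both were highest in the same group for 36 of 58 overlapping pairs (62.1%), 12 of 36 divergent pairs (33.3%), 10 of 26 pairs within 10 kilobases (38.5%) and 7 of 26 farther apart (26.9%). The rate among unrelated pairs of genes was not taken, so these shares are a description. The kit is not stated to keep strand, so reads of overlapping genes on opposite strands cannot be told apart.

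Divergent pairs showed both kinds of pattern. Gm17501 starts 331 bases from Ccn1, a matrix protein gene of adherent cells, and their means were ordered alike over the groups (ASTs first, then A-iSCs, P56-NPCs, P0-NPCs), Ccn1 from 932 to 92.3, 18.1 and 17.8 FPKM and Gm17501 from 62.7 to 4.03, 0.905 and 0.630. Gm15912 starts 53 bases from Tppp, a gene of myelinating cells, and both were highest in P56-NPCs, at means of 5.76 and 136 FPKM. Prdm16os and Prdm16 start 703 bases apart, yet Prdm16 was at means of 3.00 to 5.37 FPKM in all groups while Prdm16os ranged from 2.66 to 36.4. Snhg1 was lowest in P56-NPCs at a mean of 4.43 FPKM and highest in P0-NPCs at 13.1, while Slc3a2, an amino acid transporter gene 106 bases away, went from 103 to 96.1, 57.6 and 42.5. Among overlapping pairs, Sox2 was highest in A-iSCs at a mean of 208 FPKM, and Sox2ot in P56-NPCs at 10.3.

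**Figure D5:**
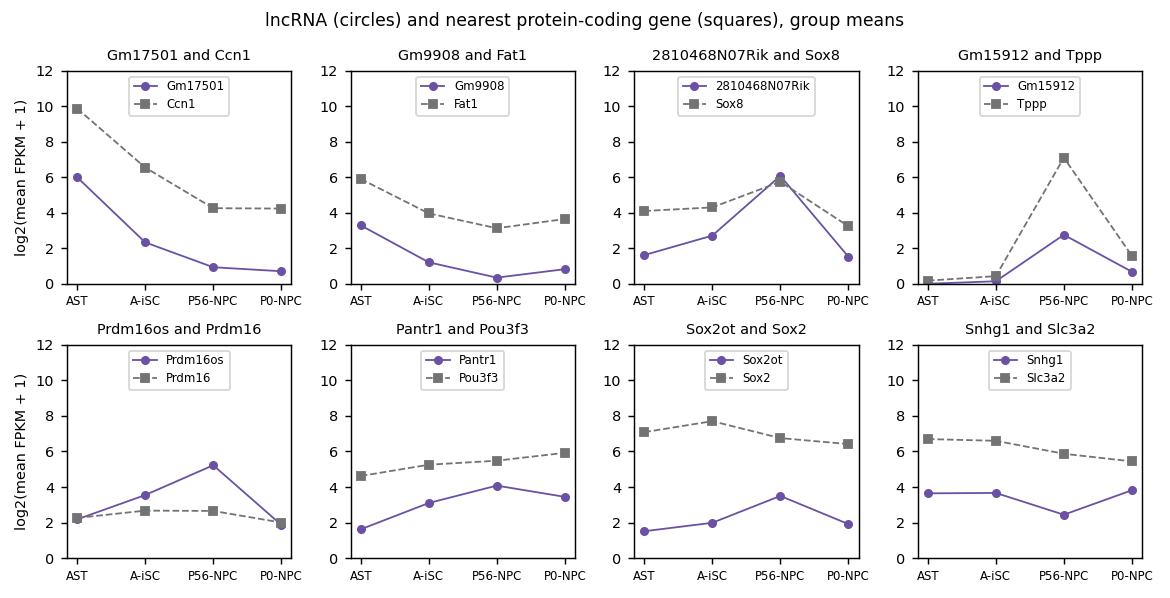
Group means as log2(mean FPKM + 1) for 8 lncRNAs (circles, solid) and their nearest protein-coding gene (squares, dashed). Gm17501 and Ccn1, Gm9908 and Fat1, 2810468N07Rik and Sox8, and Gm15912 and Tppp share their highest group, whereas Prdm16os, Pantr1, Sox2ot and Snhg1 have another highest group than their neighbour.

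The values of a few of these genes are uncertain because of shared sequence. Exons of 132 of the 188 overlap no exon of another gene, and in 5 at least 50% of the exon bases do, among them Gm17201 (59.5%, antisense to Ankrd52) and Gm21984 (74.5%, on the strand of Sez6l2). Gm21984 was at 26.9, 31.5 and 24.8 FPKM in P56-NPCs and at most 0.205 elsewhere, and Sez6l2 was also highest there. Near-identical copies cover at least 50% of 4 transcripts. Gm10076, the lncRNA with the highest single mean at 189 ± 73.8 FPKM in P56-NPCs, is covered over 99.7% of its length by near-identical copies, the longest in Rpl41, a ribosomal protein gene, and Gm42047 over 95.9%, the longest in Gm48362. How shared fragments were assigned is not given in the sources used here.

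The level of 5 FPKM cuts through a continuous range. Just inside were Gm42664 at a mean of 5.004 FPKM and Gm45591 at 5.060, both in P0-NPCs, Gm41724 at 5.014 in ASTs and Gm30731 at 5.032 in P56-NPCs. Just outside were C230035I16Rik at 4.960 in A-iSCs, Gm16364 at 4.956 in P56-NPCs, 4933439C10Rik at 4.953 in P0-NPCs and K230015D01Rik at 4.947 in ASTs. The spread between samples was wider than this distance, as Gm42664 was at 6.49, 5.09 and 3.43 FPKM.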

How the data were processed

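RNA of 12 samples was sequenced in paired-end mode (Illumina HiSeq) from NEBNext Ultra libraries. The authors deposited 1 table of FPKM values per gene, counted as fragments and divided by gene length and library size. The unit was read from the values: multiplied by gene length, 100% of the values checked were whole multiples of a step per library (tolerance 0.01). The library size behind each step was 0.7439 to 1.218 times the fragments counted, so the values already carried a scaling between samples. Bowtie 0.12.2 and mm8 are named in the submitters' processing notes, but of 55154 identifiers also found in GENCODE M21, 54899 lay at the position given there, on GRCm38. The authors' own tests, made with DESeq2, were not used.

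Groups were compared 2 at a time with limma 3.58.1 (R 4.3.3; lmFit, eBayes with a trend) on log2(FPKM + 1), keeping genes whose mean was 1 FPKM or more in either group, with Benjamini-Hochberg adjustment over all of them and calls at adjusted p under 0.05. Exact permutation over 3 against 3 samples cannot go below p = 0.1 and was not used. LncRNAs and lists were chosen with earlier results of these data known. Named were all members of the role lists, the 5 highest per group, the 3 with the largest gap per group, the 3 largest and smallest calls without overlap per comparison, and the genes beside the level; further lncRNAs that hold a miRNA or a pyrimidine run, or that pair with a neighbour, were chosen after their values were seen. Positions came from the table and GENCODE M21, miRNAs and start windows from RefSeq GRCm38.p6, and copies from blastn 2.17.0 at 97% identity or more. Python 3.11.15 with numpy 2.4.6, pandas 2.3.3 and matplotlib 3.10.9 was used. The test was checked on simulated data. No sample was left out.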

Additional observations from a re-analysis of the deposited data

How the results depend on the processing

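The rule gave 357 lncRNAs at a level of 3 FPKM and 76 at 10 FPKM. Among counts of calls, moves beyond 1.5 times were 7 higher in A-iSCs over ASTs without a filter on low values; 19 higher in P0-NPCs than in ASTs with scaling by library size and 5 lower with either that or upper-quartile scaling; and 18 higher and 9 lower in A-iSCs than in P56-NPCs with scaling by library size. Scaling by library size alone put the median of all tested genes at 0.12 in A-iSCs, -0.29 in P56-NPCs and 0.17 in P0-NPCs over ASTs, and at 0.47 and -0.08 in A-iSCs over P56-NPCs and P0-NPCs. It reversed Snhg5 in P56-NPCs over ASTs to -0.06 (adjusted p = 0.564) and Snhg8 in A-iSCs over P56-NPCs to 0.20 (adjusted p = 0.166). Leaving out 1 library at a time gave 5 to 19 higher and 5 to 6 lower in A-iSCs over ASTs, 14 to 21 and 3 to 4 in P56-NPCs over ASTs, 11 to 19 and 5 to 8 in P0-NPCs over ASTs, 4 to 14 and 18 to 21 in A-iSCs over P56-NPCs, and 2 to 18 and 6 to 13 in A-iSCs over P0-NPCs. The causes were not tested. Of 76 called fold changes of named lncRNAs, 50 were called in all alternatives; of 988 values under the alternatives, 862 were on the same side of the threshold, 124 had lost the call and 2 had reversed. A further 54 named results were not called, 37 of which were called under some alternative. Same-numbered samples did not deviate together in all pairs (correlations -0.41, 0.35 and 0.45 in A-iSCs and ASTs, and -0.14 to 0.07 in the other comparisons). A pairing by number was thus not shown, and with 3 samples per group this check cannot settle it. With the replicate block, 15 were called higher and 7 lower in A-iSCs over ASTs, 16 and 3 in P56-NPCs over ASTs, 12 and 8 in P0-NPCs over ASTs, 5 and 18 in A-iSCs over P56-NPCs, and 6 and 8 in A-iSCs over P0-NPCs. An alternative with other noncoding biotypes was not run, because the table has 0 such genes. For a gene of 1 kilobase, 3 fragments are 0.103 to 0.187 FPKM, so levels under that are within counting error.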
